A study of Mus musculus with 6 samples.

Results

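Among the miRNAs sequenced in C2C12, a mouse myoblast cell line, were some that are better known from other tissues or are rare. mmu-miR-344b-3p, mmu-miR-383-5p and mmu-miR-881-3p are known mainly from brain or germ cells, and mmu-miR-3105-3p is a rare miRNA whose hairpin lies in an intron. They are 4 of the 49 mature miRNAs in the deposited tables. The 49 had been selected on the same contrast that is described below, MSTN-KO against wild type (WT), so the differences of the 4 members between the groups are given as a description, without a test. No brain or germ cell sample was measured, so the tissues in which these miRNAs are best known are background and could not be checked here.

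Small RNA was sequenced in 3 WT and 3 MSTN-KO libraries of untreated myoblasts. In the MSTN-KO cells the third exon of the myostatin gene, which encodes a secreted inhibitor of muscle growth, had been targeted with CRISPR/Cas9. The labels give strain C11 to all 6 libraries, WT included, while the article uses C11 as the name of its knockout line. The knockout is a single line, so an effect of the lost gene and a property of that line cannot be told apart. Every direction rests on the titles and genotype labels of the libraries, because the transcript of the myostatin gene was not analysed here. The article describes miRNAs of these tables with the opposite sign to the one that the labels give. Its sign also comes from quantitative PCR, a separate measurement, which put miR-206-3p, miR-130b-3p and both arms of miR-335 higher in the knockout cells. In the libraries used here, all of these had smaller means under the MSTN-KO label. Which sign holds could not be settled from the files. WT and MSTN-KO therefore mean the libraries labelled so throughout, and if the labels of the groups were exchanged, every difference given here would change its sign while its size would stay. Nothing says that the libraries of a group came from separate cultures, so their spread may be technical. In bulk RNA, fewer cells that make a miRNA and fewer copies per cell cannot be told apart.

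A miRNA is cut from one arm of a hairpin precursor, the 5p or the 3p arm, and is loaded into an Argonaute protein. Bases 2 to 8 of the mature miRNA, the seed, do most of the pairing with target messenger RNAs. Many miRNAs of neurons and germ cells sit in large clusters or in introns of long genes, and their levels in other tissues are usually low. miR-344 miRNAs are known from the developing nervous system, miR-383 from brain and testis, and miR-881 from a group of X-linked hairpins expressed in male germ cells.

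The mature sequences show what tells the members apart, and 3 of the 4 were in the RefSeq-derived table (GRCm38.p6). In each line the capitals mark the seed.

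miR-344b-3p: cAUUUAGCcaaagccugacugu
miR-881-3p: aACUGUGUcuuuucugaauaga
miR-3105-3p: aCUGCUUAugagcuugcacucc

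Each of the 3 is 22 bases long, and their GC contents were 45.5%, 31.8% and 50%. No other mature miRNA of the 1679 names in the RefSeq table had the same 7 seed bases as any of them. No listed miRNA with an entry there therefore shared a seed with these 3, and the 3 did not share one with each other. miR-383-5p had no entry in that table, so its seed was not compared.

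miR-344b-3p belongs to a large family, and its close relatives are shown because reads of one could be counted for another. The capitals again mark the seed.

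miR-344b-3p: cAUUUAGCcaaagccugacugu
miR-344-3p: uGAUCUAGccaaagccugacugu
miR-344c-3p: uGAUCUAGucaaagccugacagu
miR-344e-3p: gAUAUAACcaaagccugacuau

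Bases 5 to 22 of miR-344b-3p, a run of 18, also occur in miR-344-3p. The longest shared run was 13 bases with miR-344e-3p and 11 bases with miR-344c-3p. The shared run starts within the seed of miR-344b-3p for the first 2 relatives and after the seed, at base 9, for miR-344c-3p. How the counting treated reads that fit more than one of them is not given in the sources used here, so the reads of miR-344b-3p are uncertain to that extent. The other 2 members with an entry had no such relative. The longest run that miR-881-3p shared with any other mature miRNA was 10 bases, with miR-7670-3p, and for miR-3105-3p it was also 10 bases, with miR-453.

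Bases 2 to 7 of miR-344b-3p occur at the same place in 4 miRNAs of the X-linked germ cell group, miR-465a-5p to miR-465d-5p. The first of them is printed here with these 6 bases in capitals in both lines.

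miR-344b-3p: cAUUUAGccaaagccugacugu
miR-465a-5p: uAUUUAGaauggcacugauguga

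Their 7-base seeds are not the same, and none of the miR-465 arms was among the 49 listed miRNAs. No other mature miRNA in the table had bases 2 to 7 of miR-881-3p, and 2 had those of miR-3105-3p.

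The 4 hairpins lie apart in the genome (GENCODE M21, GRCm38). Mir344b is on the minus strand of chromosome 7, from 61790519 to 61790581, in an intron of the long noncoding RNA gene A230057D06Rik. It is one of 13 Mir344 hairpins, all on that strand, which span 402 kb. Of the 19 mature names of these hairpins, miR-344b-3p alone was in the deposited tables. Mir3105 is on the same chromosome but far from Mir344b, on the plus strand from 144009254 to 144009338. It lies in an intron of Shank2, which encodes a scaffold protein of the postsynaptic density.

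Mir383 is on the minus strand of chromosome 8, from 38252133 to 38252202, in an intron of Sgcz. Sgcz encodes zeta-sarcoglycan, a member of the sarcoglycan complex of the muscle cell membrane. Mir881 is on the minus strand of chromosome X, from 66801944 to 66802021, outside annotated genes and 141 kb from Slitrk2, the next protein-coding gene on its lower-coordinate side. It stands in a run of hairpins on one strand, with 18 others within 50 kb, and the nearest, Mir878, is 358 bases away. These 18 hairpins have 32 mature names in RefSeq, of which none was in the deposited tables. For miR-344b-3p, miR-881-3p and miR-3105-3p the opposite arm of the same hairpin was not in the tables either, and no other listed miRNA shared a host gene with a member. Since the tables hold a selected part of each library, a miRNA outside them was not analysed here, and nothing can be said of its level.

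The libraries held 5502214 to 11823489 reads, and their totals did not separate the groups (8391979 ± 2977808 in WT and 7919038 ± 2134478 in MSTN-KO, SD, n = 3 each, exact two-sided permutation p = 0.8, smallest possible p = 0.1). Levels are reads per 1000000 library reads (RPM), a scale without a length term. The 49 miRNAs made up 0.773% to 3.47% of a library. Of the 7 muscle miRNAs that served as markers of the myoblast label, 6 were in the tables and miR-208b-3p was not. The 6 summed to between 18977 and 32560 RPM in the WT libraries and to between 6319 and 11068 RPM in the MSTN-KO libraries. Most of the sum was miR-206-3p, with means of 24841 RPM in WT and 8479 RPM in MSTN-KO. Not every marker was high, since miR-499-5p averaged 4.85 RPM in WT and 0.789 RPM in MSTN-KO, and miR-1a-3p averaged 6.14 RPM in MSTN-KO. Each of the 6 had its smaller mean in the MSTN-KO group, a direction with the same unsettled sign. The 4 members together held 45.3 to 56.4 RPM in the WT libraries and 120.3 to 136.4 RPM in the MSTN-KO libraries. The muscle markers therefore moved with the groups in the other direction, and their part in the levels of the members was not tested.

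miR-344b-3p, the brain miRNA of the Mir344 group, had the largest difference among the 4 members on the log2(RPM + 1) scale. It was at 5.24, 6.26 and 5.58 RPM in WT replicates 1, 2 and 3 and at 20.7, 26.1 and 26.9 RPM in MSTN-KO replicates 1, 2 and 3. These levels stood on 34, 43 and 66 reads in the WT libraries and on 114, 249 and 234 reads in the MSTN-KO libraries. The replicates lay close together in both groups, and the lowest MSTN-KO library was 3.31 times the highest WT library. The means were 5.70 ± 0.520 RPM in WT and 24.6 ± 3.35 RPM in MSTN-KO (SD, n = 3), a 4.31-fold ratio and a log2 difference of 1.93 ± 0.20 (SE, limma).

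miR-383-5p, from the sarcoglycan gene, was at 15.9, 14.0 and 19.9 RPM in WT replicates 1, 2 and 3 and at 41.1, 47.9 and 31.3 RPM in MSTN-KO replicates 1, 2 and 3. It was counted 103, 96 and 235 times in the WT libraries and 226, 457 and 273 times in the MSTN-KO libraries. All MSTN-KO values lay above all WT values, with MSTN-KO replicate 3 nearest to the WT group at 1.58 times its highest library. The means were 16.6 ± 3.01 RPM and 40.1 ± 8.31 RPM (SD, n = 3), a 2.42-fold ratio and a log2 difference of 1.22 ± 0.23 (SE, limma).

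miR-881-3p, the germ cell miRNA from chromosome X, was the most abundant member on average. It was at 24.2, 35.5 and 23.5 RPM in WT replicates 1, 2 and 3 and at 66.0, 44.7 and 77.0 RPM in MSTN-KO replicates 1, 2 and 3. Behind these levels were 157, 244 and 278 reads in the WT libraries and 363, 427 and 671 reads in the MSTN-KO libraries. The groups did not overlap, but WT replicate 2 was high and MSTN-KO replicate 2 was low, so that only a 1.26-fold gap lay between them. That gap was 0.56 times the SD of the MSTN-KO group. The means were 27.8 ± 6.75 RPM and 62.6 ± 16.4 RPM (SD, n = 3), a 2.26-fold ratio and a log2 difference of 1.13 ± 0.26 (SE, limma).

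miR-3105-3p, from the Shank2 intron, was close to the limit of what the libraries can show. It was listed at 0, 0.583 and 0.338 RPM in WT replicates 1, 2 and 3, which is 0, 4 and 4 reads. In MSTN-KO replicates 1, 2 and 3 it was at 2.54, 1.57 and 1.15 RPM, which is 14, 15 and 10 reads. The highest value came from the shallowest of the 6 libraries, MSTN-KO replicate 1, and the 0 from WT replicate 1, where 3 reads would be 0.462 RPM. The means were 0.307 ± 0.293 RPM and 1.75 ± 0.716 RPM (SD, n = 3), a 5.72-fold ratio that rests on few WT reads. The log2 difference was 1.07 ± 0.26 (SE, limma). With WT replicate 1 set to its floor of 3 reads, an alternative added after the values were seen, the log2 difference was 0.89. Its size also depended on the pseudocount, with a log2 difference of 2.51 at a pseudocount of 0.1 and of 0.19 at 10.

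**Figure D1:**
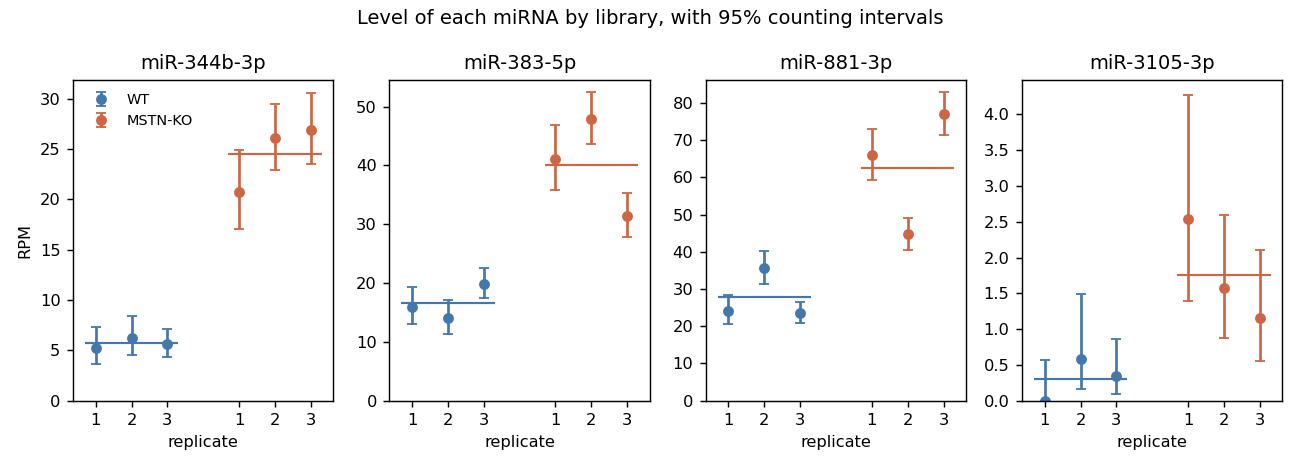
Level of each miRNA in RPM (y axis, a separate linear scale from 0 in each panel) by replicate (x axis) in the WT and MSTN-KO groups. Points are libraries, bars are exact 95% Poisson intervals of the reads and horizontal lines are group means. The miR-344b-3p points sit near 5.70 and 24.6 RPM, miR-881-3p has the nearest WT and MSTN-KO points in relative terms, and the miR-3105-3p intervals overlap between groups.

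For 3 members the counting intervals lay apart between the groups. This is a description and no test, because the listed miRNAs had been picked on this contrast. The intervals of the other listed miRNAs were not compared. For miR-344b-3p and miR-383-5p, the 95% Poisson intervals of the libraries lay apart in all 9 pairs of a WT and an MSTN-KO library. The same held for miR-881-3p, narrowly, since its lowest bound in an MSTN-KO library was 40.6 RPM and its highest bound in a WT library was 40.3 RPM. For miR-3105-3p the intervals were apart in 4 of the 9 pairs. The intervals cover counting error only, since the reads carry no molecular identifiers and several can come from 1 molecule.

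With the reads worked out from the deposited values taken as given, replicates differed by more than counting for the 2 most abundant members. Among MSTN-KO libraries, the variance of the reads of miR-881-3p was 39.8 times that of counting alone, the largest value among the 14 listed miRNAs that were higher in MSTN-KO. It was 12.9 times in the WT group. For miR-383-5p the ratios were 4.84 in WT and 15.5 in MSTN-KO. The ratio was 0.33 for miR-344b-3p in WT and 2.83 in MSTN-KO, and it was 1.80 and 2.03 for miR-3105-3p, for which counting alone is a large part of the spread. Over the 49 listed miRNAs the median ratio was 4.49 in WT and 3.46 in MSTN-KO. In relative terms the order was different, since the coefficient of variation in the MSTN-KO group was 13.6% for miR-344b-3p, 20.7% for miR-383-5p, 26.2% for miR-881-3p and 40.8% for miR-3105-3p.

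miR-881-3p and miR-383-5p did not deviate together. In each group the library with the highest miR-881-3p had the lowest miR-383-5p, namely WT replicate 2 and MSTN-KO replicate 3. The library with the lowest miR-881-3p had the highest miR-383-5p, namely WT replicate 3 and MSTN-KO replicate 2. On the log2(RPM + 1) scale, MSTN-KO replicate 2 was 0.44 below its group mean for miR-881-3p and 0.27 above it for miR-383-5p. WT replicate 1 was the only library below its group mean for all 4 members, with deviations from -0.36 to -0.045, and none was above it for all 4.

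**Figure D2:**
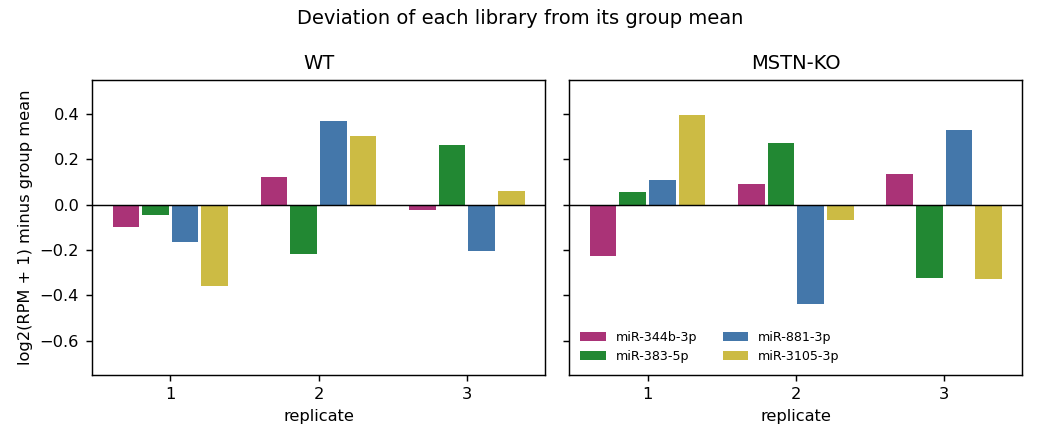
Deviation of each library from its group mean in log2(RPM + 1) (y axis) by replicate (x axis), with 1 bar per miRNA and 1 panel per group. In replicates 2 and 3 of both groups the bars of miR-383-5p and miR-881-3p point in opposite directions.

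The order of the levels was nearly the same in all libraries. In RPM it ran from miR-881-3p over miR-383-5p and miR-344b-3p to miR-3105-3p in 5 of 6 libraries, and in MSTN-KO replicate 2 miR-383-5p was above miR-881-3p. In the MSTN-KO group the ranges of miR-881-3p and miR-383-5p overlapped, so that these neighbours did not differ beyond their spread there. In the WT group their ranges were apart, as were those of all other neighbours in both groups.

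Ratios within a library, computed after the levels had been seen, do not depend on the library total. miR-881-3p over miR-383-5p was 1.52, 2.54 and 1.18 in WT replicates 1, 2 and 3 and 1.61, 0.93 and 2.46 in MSTN-KO replicates 1, 2 and 3, with wide overlap between groups. miR-383-5p over miR-344b-3p was 3.03, 2.23 and 3.56 in the WT libraries and 1.98, 1.84 and 1.17 in the MSTN-KO libraries, without overlap. miR-881-3p over miR-344b-3p fell into separate ranges as well, from 4.21 to 5.67 in WT and from 1.71 to 3.18 in MSTN-KO. miR-344b-3p was thus more abundant relative to both miRNAs in the MSTN-KO libraries.

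Set against the 49 listed miRNAs, the members held middle and low places. By mean RPM over all libraries miR-881-3p ranked 13, between miR-181a-1-3p at 47.4 RPM and miR-130b-5p at 34.8 RPM. miR-383-5p ranked 15, between miR-130b-5p and miR-669c-5p at 24.0 RPM, and miR-344b-3p ranked 20, between miR-23b-5p at 19.2 RPM and miR-193b-3p at 14.9 RPM. miR-3105-3p ranked 47, between miR-3079-5p at 1.09 RPM and miR-193b-5p at 0.784 RPM. With 47 reads in all 6 libraries together it had the third lowest support of the 49, while miR-344b-3p had 740 reads, miR-383-5p 1390 and miR-881-3p 2140.

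All 4 members were higher in the MSTN-KO group without overlap. The groups did not overlap for any of the 49 listed miRNAs (100%), of which 14 (28.6%) were higher in the libraries labelled MSTN-KO. This split and the order of rises turn around if the labels are exchanged. With the thresholds taken from the study's methods (log2 fold change beyond 1 and limma p under 0.05, not adjusted), all 4 members were called as higher. So were 14 of the 49 (28.6%), and 42 (85.7%) were called in either direction. The tables had been picked on this contrast, so nothing is read from these counts. The median log2 difference was 1.18 over the 4 members, 1.37 over the 14 higher miRNAs and -1.07 over all 49. By size of the rise on the log2(RPM + 1) scale, miR-344b-3p was at place 2 of the 14, after miR-139-5p. On that scale miR-383-5p was at place 10, miR-881-3p at 12 and miR-3105-3p at 13, followed by miR-193b-5p with a difference of 1.05. The scale shrinks differences at low levels. By ratio of the group means, miR-193b-5p (8.02-fold), miR-3105-3p (5.72-fold) and both arms of the miR-139 hairpin stood above miR-344b-3p (4.31-fold).

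**Figure D3:**
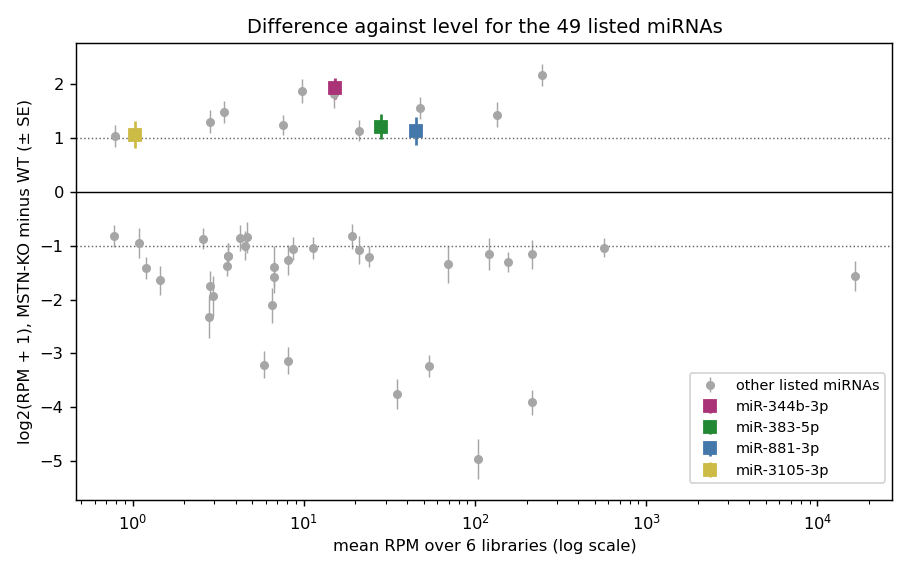
Log2(RPM + 1) difference, MSTN-KO minus WT, with its limma SE (y axis) against the mean RPM over 6 libraries (x axis, log scale) for the 49 listed miRNAs. Dotted lines mark a log2 difference of 1 and -1. miR-344b-3p stands at 1.93, and the other 3 members lie just above the upper line, between 1.07 and 1.22.

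The differences of miR-881-3p and miR-3105-3p stood near the fold cut-off, and leaving out single libraries moved them across it. Without MSTN-KO replicate 3 the log2 difference of miR-881-3p was 0.97. Without WT replicate 1 that of miR-3105-3p was 0.89, and without MSTN-KO replicate 1 it was 0.87. miR-344b-3p stayed between 1.86 and 2.04 and miR-383-5p between 1.08 and 1.38 whichever library was left out. Rescaling the libraries on the 49 listed miRNAs, of which 35 were lower in MSTN-KO, raised every member. It raised the median of the listed miRNAs by 0.90 to 1.23 and changed the 14 higher and 28 lower calls to 14 higher and between 9 and 11 lower.

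**Figure D4:**
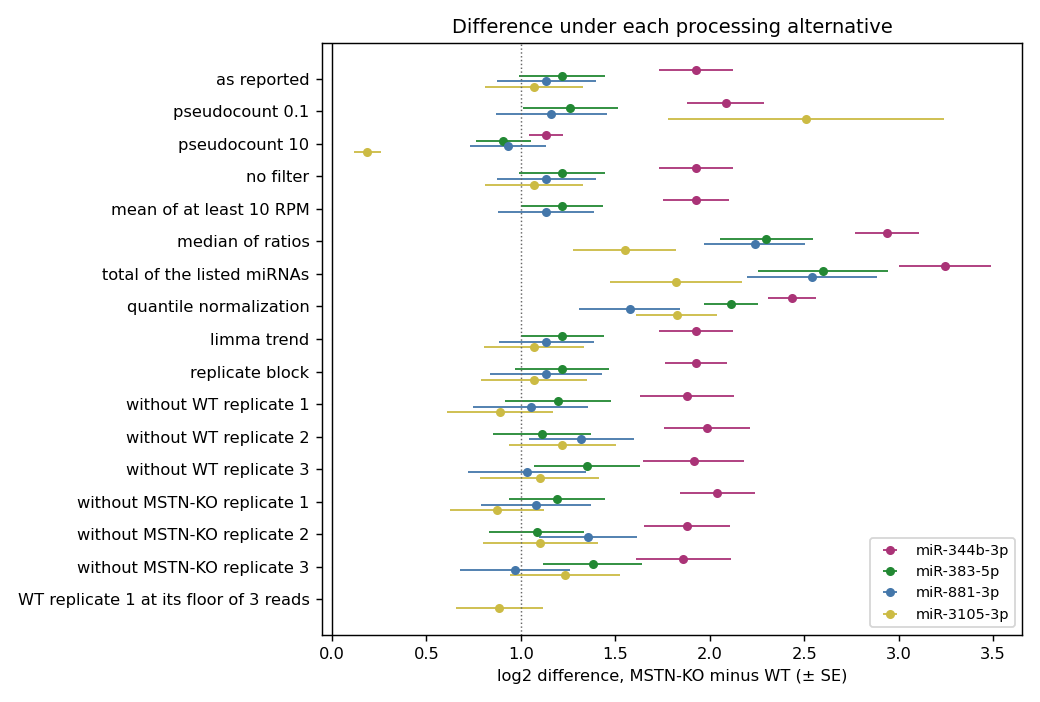
Log2 difference, MSTN-KO minus WT, with its limma SE (x axis) under each processing alternative (y axis). The dotted line marks a log2 difference of 1. All values are above 0, from 0.19 for miR-3105-3p at a pseudocount of 10 to 3.24 for miR-344b-3p after division by the summed RPM of the 49.

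The listed miRNAs most like each member were found by the root mean square difference of their log2(RPM + 1) values over the 6 libraries, after each miRNA was centred on its mean. For miR-344b-3p these were both arms of the miR-139 hairpin, miR-139-3p at 0.16 and miR-139-5p at 0.17. For miR-383-5p they were miR-33-5p at 0.13 and miR-9-3p at 0.23. For miR-881-3p they were miR-193b-5p at 0.27 and miR-9-3p at 0.31, and for miR-3105-3p miR-193b-5p at 0.20 and miR-455-3p at 0.25. The measure is led by the difference between the groups, and it is a description of these 6 libraries.

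Lists of miRNAs known from brain and from germ cells were then set beside the members. The brain list held 32 names, the whole miR-344 group included, of which 4 were in the tables. Of these, 3 were higher in MSTN-KO and 1 was lower, against 14 higher of all 49 listed miRNAs (28.6%). The 3 include the members miR-344b-3p and miR-383-5p, so outside the members only miR-9-3p and miR-153-3p remain. miR-9-3p, from a hairpin family of neural progenitors, was at 3.85 to 4.37 RPM in the WT libraries and at 10.4 to 11.8 RPM in the MSTN-KO libraries, a log2 difference of 1.24 ± 0.18 (SE, limma). miR-153-3p, which is best known from neurons, was at 4.93 to 8.03 RPM in the WT libraries and at 1.64 to 4.09 RPM in the MSTN-KO libraries, a log2 difference of -0.84 ± 0.29 (SE, limma). The listed brain miRNAs therefore lay on both sides. Of the 64 names in the germ cell list, miR-881-3p was the only one in the tables.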

How the data were processed

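The authors deposited 1 table per library with a value for each of 49 mature miRNAs. The deposited values are RPM, reads per 1000000 library reads. The article calls its values FPKM, but within each library 100% of the nonzero values came out as whole numbers of 1 step (tolerance 0.01), so no length entered. The step was taken as 1 read and its inverse as the library total. The submitters' processing notes name Bowtie 0.12.2 and mm8, with no role. Which tool counted the reads, against which catalogue and over which total, is not given in the sources used here.

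Groups and replicate numbers come from the sample titles. A linear model of log2(RPM + 1) was fitted with limma 3.58.1 (lmFit, eBayes) in R 4.3.3 over all 49 miRNAs, each of which reached 1 RPM in at least 1 library. The low values per library were too few to establish recovered reads for a count model. The reads were therefore used only to describe depth, counting error and the part of counting in the spread between replicates. Exact 95% Poisson intervals were computed in scipy 1.17.1, and the floor was 3 reads. The permutation test of the totals was exact and two-sided. The fit was also run on simulated data in which most miRNAs were unchanged. The listed miRNAs had been picked on the contrast, so that run does not show the error rates of the fit here.

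The members and the lists were chosen with earlier results of these data known. Besides the members, the miRNAs named were the 2 most like each member, its neighbours in mean RPM, those with its hairpin, host or seed and those of the brain, germ cell and muscle lists. miR-139-5p and miR-193b-5p are also named as neighbours in the order of rises, and the sequence relatives were added after their sequences were compared. The files hold no coordinates. Hairpin positions are from GENCODE M21 on GRCm38 (1-based) and mature sequences from RefSeq, GRCm38.p6, where 32 of the 49 listed names matched.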

Additional observations from a re-analysis of the deposited data

How the results depend on the processing

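All 4 members stayed higher in the libraries labelled MSTN-KO under each alternative run. Without rescaling this was fixed in advance, because every MSTN-KO value of a member lay above all its WT values. The sizes of the members' log2 differences moved by more than 1 SD between replicates as follows. The cause was not tested unless the alternative's construction shows it. A pseudocount of 10, which compresses low values, gave 1.13 for miR-344b-3p, 0.91 for miR-383-5p and 0.19 for miR-3105-3p, and left 1 member and 17 listed miRNAs past the study's cut-offs. A pseudocount of 0.1 gave 2.51 for miR-3105-3p. Median-of-ratios scaling gave 2.94, 2.30, 2.24 and 1.55 for miR-344b-3p, miR-383-5p, miR-881-3p and miR-3105-3p, and 25 listed miRNAs past the cut-offs. Division by the summed RPM of the 49 gave 3.24, 2.60, 2.54 and 1.82 in the same order, with 24 past the cut-offs. Quantile normalization gave 2.44, 2.11, 1.58 and 1.82, with 23. These scalings shifted the median of the listed miRNAs by 0.99, 1.23 and 0.90. A minimum mean level of 10 RPM left 22 miRNAs, with 21 called, and dropped miR-3105-3p. Leaving out 1 library at a time left 3 or 4 members called.

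The titles of both groups use replicate numbers 1 to 3. With the number as a replicate block, 4 members and 42 listed miRNAs were called, as without it. Deviations from the group means correlated by 0.0047, 0.22 and 0.056 in the same-numbered pairs and by -0.29 to 0.17 in the other pairs. The 0.22 of the pair numbered 2 was the highest value. WT replicates 1 and 3 correlated best with an MSTN-KO library of another number. With 3 libraries per group, these values cannot show whether same-numbered libraries were handled together. Depth limits miR-3105-3p, with at most 15 reads in a library. The filter removed nothing.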
